A study of Mus musculus with 25 samples.

Results

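The genes described are 9 that take part in signals to or from Schwann cells in the peripheral nerve, chosen by name from the 56956 genes of the deposited count table. They are the ligand Nrg1, the receptors Erbb2, Erbb3 and Erbb4, the proteases Adam17 and Bace1, the secreted protein Lgi4 with its receptor Adam22, and the G protein-coupled receptor Adgrg6 (also named Gpr126). Their mRNA was measured in whole sciatic nerve of 5 groups of untreated mice. C3 mice (B6.Cg-Tg(PMP22)C3Fbas/J) carry human PMP22 on a yeast artificial chromosome in a C57BL/6J background and model Charcot-Marie-Tooth disease type 1A, and WT-C3 are C57BL/6J controls. C22 mice (Tg(PMP22)C22Clh) carry more copies of the same transgene and were compared to WT-C22 controls, both FVB/NRJ, so the models differ in strain as well as in copy number. The fifth group, C3-PMP22 c-JunP0Cre, is a C3 line in which c-Jun is deleted from Schwann cells through P0Cre (written C3 c-JunP0Cre here). Its strain background is not stated in the labels, no group with the Cre or the floxed allele alone was analysed here, and all the animals of both C3 groups carry the transgene. Each group gave 1 library at each of 5 ages (3, 5, 7 and 9 weeks, and 12 weeks), and each library pools nerves of both sexes from 4 to 5 mice. A single batch is named for all libraries in the labels.

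Neuregulin 1 on the axon surface binds ErbB3 on the Schwann cell, and ErbB3, whose own kinase is impaired, signals through its partner ErbB2. This signal supports Schwann cell survival and division in development and sets how thick the myelin becomes. The membrane-bound form of neuregulin 1 is activated by the protease Bace1 and held back by the protease Adam17. Schwann cells secrete Lgi4, which binds the receptor Adam22, and Adgrg6 raises cyclic AMP at the start of myelination. Most neuregulin 1 of the nerve is made in cell bodies that lie outside the sciatic nerve, so mRNA of the nerve comes largely from the cells within it. This holds for Adam17, Bace1 and Adam22 too, and their mRNA does not measure signalling at the axon.

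Depth on genes ran from 2140142 to 49072746 counts (median 24663235), the lowest being the C3 library of 9 weeks. With 1 pool per group and age, the 5 ages stand in as replicates of a group (n = 5). The SD and the standard error (SE) therefore hold both the course with age and the spread of pools. Levels are given as CPM, the counts of a gene per 1e6 counts of the library after TMM scaling, and differences as log2 changes from the quasi-likelihood test of edgeR with Benjamini-Hochberg adjustment over 13993 genes and a threshold of 0.05. All 9 genes passed the filter on low counts. Nrg1 passed only through the C3 and C3 c-JunP0Cre libraries, since it lay under the limit in all others. The knockout was visible in its target, as Jun fell from 110.5 ± 11.7 CPM in C3 to 29.3 ± 2.45 CPM in C3 c-JunP0Cre (SD, n = 5; log2 change -1.90 ± 0.09 SE, edgeR adjusted p = 7.29e-07). Human PMP22 had means of 12669.7 CPM in C3, 11473 CPM in C3 c-JunP0Cre and 11889 CPM in C22, and at most 6.43 CPM in a control library. Its mean mRNA level was thus not higher in C22, which carries more copies, than in C3. Markers of myelinating Schwann cells were high in all groups. The summed level of the 12 markers was 50355 to 73755 CPM in C3 against 80104 to 137636 CPM in WT-C3, and 31134 to 46021 CPM in C22 against 63629.8 to 135638 CPM in WT-C22. In these bulk samples fewer cells of a type and less RNA per cell cannot be told apart.

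Per length of exon, Lgi4 and Erbb3 had the highest levels of the 9 genes and Nrg1 and Erbb4 were among the lowest. In WT-C3, Lgi4 stood at 54.8 ± 7.08 CPM per kilobase (SD, n = 5) and Erbb3 at 35.9 ± 2.54. The partner receptor Erbb2 followed at 16.4 ± 1.52 CPM per kilobase, within the spread of Adam17 at 14.2 ± 2.97. Adgrg6 lay lower, at 6.23 ± 0.907 CPM per kilobase, and Adam22 lower still at 1.43 ± 0.0903. Erbb4 had 0.785 ± 0.115 CPM per kilobase and Nrg1 0.0577 ± 0.0104. Bace1 had 11.8 ± 0.435 CPM per kilobase. In C22 the mean of Erbb3 (75.0 ± 7.12 CPM per kilobase) was above that of Lgi4 (66.1 ± 6.24), and Erbb4 had 0.231 ± 0.0900 CPM per kilobase. Nrg1 had the lowest level of the 9 in WT-C3, WT-C22 and C22. In C3 (0.422 ± 0.195 for Nrg1 and 0.368 ± 0.0422 for Erbb4) and in C3 c-JunP0Cre (0.549 ± 0.193 and 0.662 ± 0.0957) Nrg1 and Erbb4 lay within their spread.

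**Figure D1:**
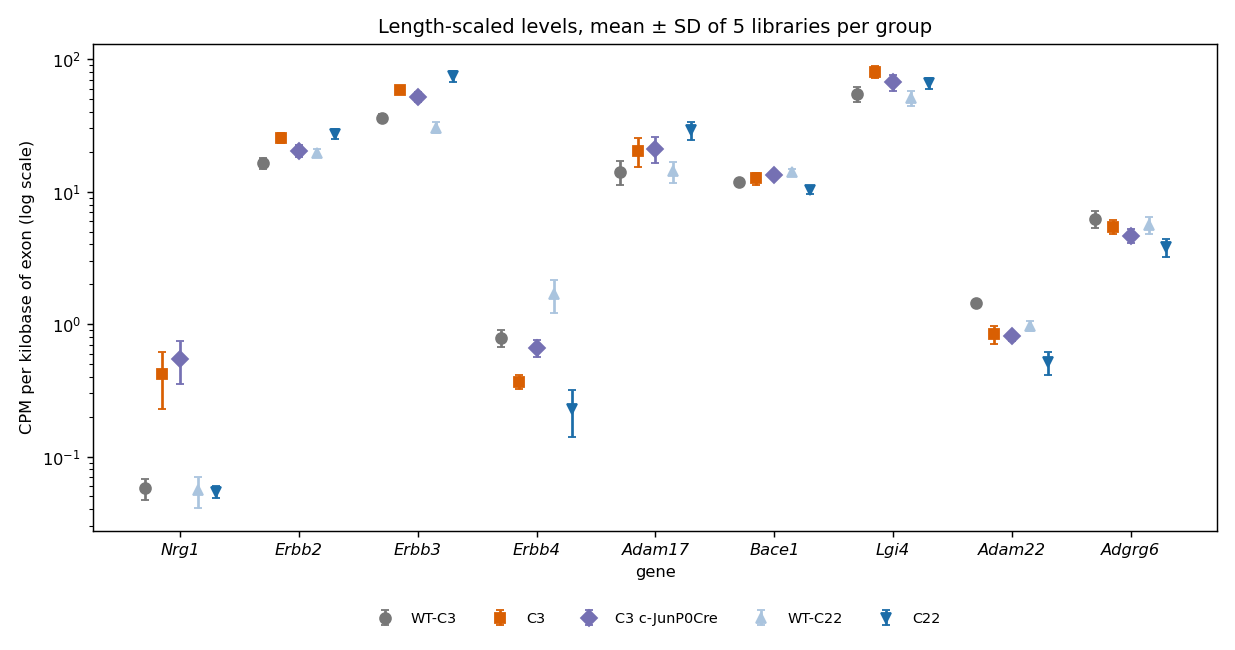
Mean CPM per kilobase of exon (log axis) of the 9 genes in the 5 groups, with bars for the SD of 5 libraries. Nrg1 is set apart in C3 (0.422) and C3 c-JunP0Cre (0.549) from the other groups, and Erbb4 spans from 0.231 in C22 to 1.68 in WT-C22.

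The mRNA of the ligand Nrg1 rose in the C3 nerve and not detectably in the C22 nerve. From 3 to 12 weeks, its level in WT-C3 was 0.784, 1.11, 0.803, 0.957 and 1.16 CPM, which is 7 to 19 counts per library. In C3 it was 10.5, 9.18, 8.38, 3.28 and 3.89 CPM at the same ages, and every C3 library lay above every WT-C3 library. The change was 7.55-fold (log2 change 2.92 ± 0.33 SE, edgeR adjusted p = 0.000162). The value at 9 weeks rests on 7 counts in the shallowest library, and without that library the log2 change was 3.03 (edgeR adjusted p = 0.000159). The filter kept Nrg1 only through C3 and C3 c-JunP0Cre, where it is high. Its p-values in comparisons with these groups are therefore not independent of the filter. Without a filter on low counts, the log2 change in C3 was 2.95 ± 0.31 SE (edgeR adjusted p = 6.01e-06).

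The nerves without Schwann cell c-Jun had Nrg1 levels that overlapped those of C3, at 13.9, 10.8, 8.37, 6.89 and 5.84 CPM from 3 to 12 weeks. Their difference from C3 was not called (log2 change 0.29 ± 0.31 SE, edgeR adjusted p = 0.904), with a 95% interval of -0.39 to 0.97. Compared to WT-C3, Nrg1 rose 9.30-fold in C3 c-JunP0Cre (log2 change 3.22 ± 0.27 SE, edgeR adjusted p = 8.76e-06). WT-C22 had 0.965, 0.853, 0.661, 1.33 and 0.829 CPM and C22 0.854, 0.780, 1.04, 0.941 and 0.917 CPM. All C22 values lay within the range of WT-C22, and the log2 change in C22 of -0.04 ± 0.21 SE had a 95% interval of -0.50 to 0.41 (edgeR adjusted p = 0.906). The change in C22 was smaller than that in C3 (difference in log2 change -2.98 ± 0.40 SE, edgeR adjusted p = 3.72e-05).

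Nrg1 has 26 annotated starts of protein-coding transcripts on mouse chromosome 8 (GRCm39, minus strand), from 32407678 to 33374825. The counts are those of the Nrg1 entry with 16689 exon bases, summed over its transcripts. They do not separate the membrane-bound from the soluble forms. A second entry named Nrg1, of 186 bases that all overlap exons of the first on the same strand, was counted apart. Its counts are not given here. Among the 8 nearest neighbouring genes that were tested, chosen after the values of Nrg1 were seen, Tex15 was the only one called in C3 (log2 change 2.42 ± 0.36 SE, edgeR adjusted p = 0.000863), and it was called in C22 as well (log2 change 1.66 ± 0.16 SE, edgeR adjusted p = 1.37e-05). The other 7, Rnf122, Tti2, Mak16, Pofut3, Wrn, Purg and Ppp2cb, had log2 changes of -0.04 to 0.43 in C3. Markers of neurons differed in level: Rbfox3, a nuclear protein of neurons, had at most 23 counts in a C3 library, and Chat at most 3 counts in any library. Prph and Snap25 were higher, with means of 9.93 and 4.31 CPM in WT-C3, where Nrg1 had 0.964 CPM. The neuronal tubulin Tubb3 was higher, as Nrg1 was, in C3 (log2 change 2.83 ± 0.19 SE, edgeR adjusted p = 1.17e-05) and in C3 c-JunP0Cre compared to WT-C3 (log2 change 2.41 ± 0.13 SE, edgeR adjusted p = 3.25e-07). Unlike Nrg1, it was called lower in C22 (log2 change -0.74 ± 0.18 SE, edgeR adjusted p = 0.00579) and in WT-C22 compared to WT-C3 (log2 change -1.35 ± 0.18 SE, edgeR adjusted p = 0.000177). Its mean levels were 4.07 CPM in WT-C3, 29.5 in C3, 21.6 in C3 c-JunP0Cre, 1.58 in WT-C22 and 0.955 in C22. Of the 8 neuron markers 4 were tested, and Tubb3 was higher while Prph and Snap25 were lower in C3. The summed level of markers of immature and repair Schwann cells, the deleted gene Jun among them, was 609.6 to 777 CPM in C3. It was 380.1 to 439 CPM in WT-C3 and 407 to 479 CPM in C3 c-JunP0Cre. In C22, where Nrg1 was not called, it was 431.6 to 589 CPM, against 344.6 to 423 CPM in WT-C22. Of the 10 tested, 8 were called higher and 1 lower in C3 against WT-C3, where 12.5% and 11.4% of all genes were. In C3 c-JunP0Cre against WT-C3, 5 were called higher and 3 lower, where 10.3% and 11.3% of all genes were. In C22 against WT-C22, 5 were called higher and 4 lower, where 21.9% and 20.5% of all genes were. The part of any of these genes or cells in the Nrg1 values was not tested.

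**Figure D2:**
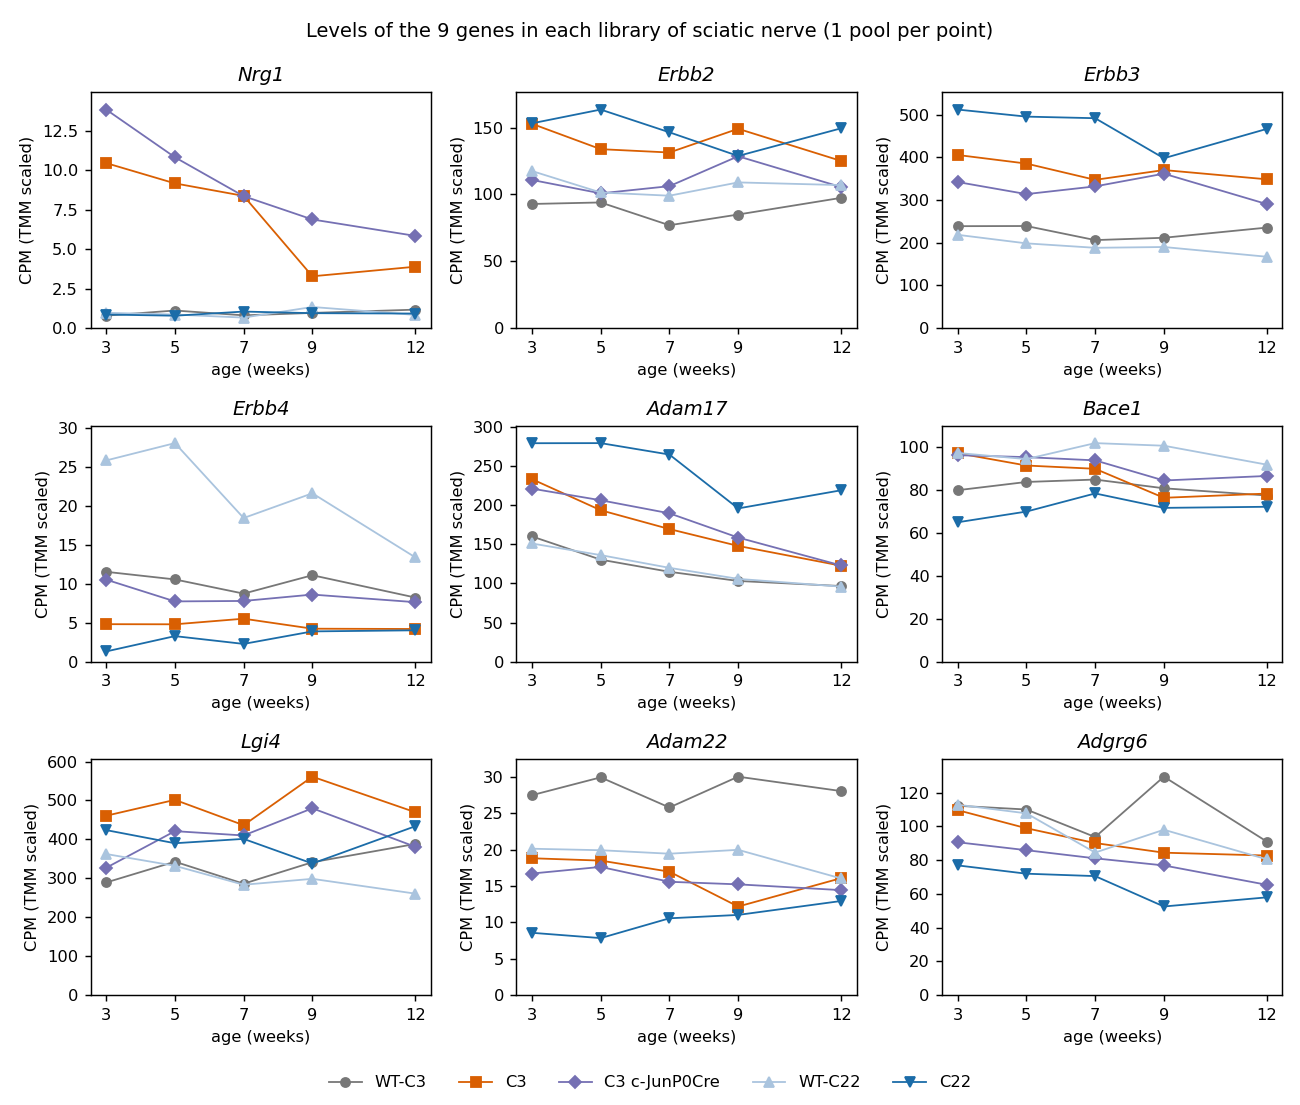
CPM of each of the 9 genes (vertical axes, from 0) against age in weeks, with 1 point per library and 1 line per group. Nrg1 lies at 3.28 to 10.5 CPM in C3 and 5.84 to 13.9 CPM in C3 c-JunP0Cre, above all other libraries, and Erbb4 lies lowest in C22 at 1.30 to 4.01 CPM and highest in WT-C22 at 13.4 to 28.0 CPM.

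Of the receptors, Erbb2 and Erbb3 rose in both models while Erbb4 fell. Erbb3, the receptor that binds neuregulin 1 on Schwann cells, had 239, 239, 206, 212 and 235 CPM in WT-C3 from 3 to 12 weeks and 406, 385, 347, 370.3 and 349 CPM in C3. It rose 1.64-fold, with no overlap of the groups (log2 change 0.71 ± 0.08 SE, edgeR adjusted p = 0.000126). In WT-C22 the levels were 218, 198, 188, 189.9 and 167 CPM and in C22 512, 496, 492, 398 and 467 CPM. The rise of 2.45-fold in C22 (log2 change 1.29 ± 0.09 SE, edgeR adjusted p = 1.17e-06) exceeded that in C3 by 0.56 on the log2 scale (SE 0.11, edgeR adjusted p = 0.00269). The shared receptor subunit Erbb2 ranged from 76.9 to 97.4 CPM in WT-C3 and from 125 to 153 CPM in C3 (log2 change 0.63 ± 0.08 SE, edgeR adjusted p = 0.000467). In WT-C22 it ranged from 99.0 to 117 CPM and in C22 from 129 to 163 CPM (log2 change 0.47 ± 0.07 SE, edgeR adjusted p = 0.000426). Neither pair of groups overlapped, and the changes of Erbb2 in the models were not shown to differ (difference -0.18 ± 0.11 SE, 95% interval -0.41 to 0.05, edgeR adjusted p = 0.333).

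Erbb4, a neuregulin receptor with a kinase of its own, was the receptor with the lowest level and the largest change. WT-C3 had 11.5, 10.5, 8.72, 11.1 and 8.21 CPM from 3 to 12 weeks and C3 4.80, 4.78, 5.50, 4.22 and 4.18 CPM. All C3 libraries lay below all WT-C3 libraries (log2 change -1.07 ± 0.14 SE, edgeR adjusted p = 0.000456). The FVB/NRJ groups lay further apart, with 25.8, 28.0, 18.4, 21.6 and 13.4 CPM in WT-C22 and 1.30, 3.27, 2.26, 3.87 and 4.01 CPM in C22. Here Erbb4 was 7.30-fold lower (log2 change -2.87 ± 0.30 SE, edgeR adjusted p = 2.02e-05), a larger fall than in C3 (difference -1.82 ± 0.34 SE, edgeR adjusted p = 0.0012). C22 libraries held 38 to 107 counts of Erbb4, and the C3 library of 9 weeks held 9. Of 7 perineurial markers, 6 were called lower in C22 and 4 in C3. Of 8 markers of endothelial cells and pericytes, 6 were called lower in C22 and 2 in C3, where 20.5% and 11.4% of all genes were called lower. Their part in the Erbb4 values was not tested.

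The 250 bases before the canonical starts of Erbb3 and Erbb4 are shown because these receptors moved in opposite directions in the same nerves. The Erbb3 window is chr10:128425537-128425786 and that of Erbb4 is chr1:69147620-69147869, both from the minus strand of GRCm39 and written 5′ to 3′ toward the start. Capitals mark matches on either strand to the AP-1 motif TGANTCA, the site class bound by c-Jun and its partners.
Erbb3: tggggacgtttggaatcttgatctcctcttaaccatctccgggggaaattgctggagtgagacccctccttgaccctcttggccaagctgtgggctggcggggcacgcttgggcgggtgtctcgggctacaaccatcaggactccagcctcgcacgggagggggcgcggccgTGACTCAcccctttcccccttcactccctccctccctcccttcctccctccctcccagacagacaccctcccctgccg
Erbb4: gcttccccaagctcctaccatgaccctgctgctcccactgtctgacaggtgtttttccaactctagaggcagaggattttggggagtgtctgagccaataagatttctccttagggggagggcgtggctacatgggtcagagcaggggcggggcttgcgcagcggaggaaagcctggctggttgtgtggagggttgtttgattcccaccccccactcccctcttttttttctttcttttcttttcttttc
Erbb3 holds 1 match, beginning 78 bases before the start, and Erbb4 holds none in this window. Over the canonical promoters of 21756 protein-coding genes, 6.17% of windows of this length hold the motif, and 1 of the 9 genes does. The zinc finger motif of the EGR family, GCGNGGGNG, occurs in 10.5% of all windows and in neither of these. Nothing in the data measures binding at these sites.

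Of the proteases, Adam17 rose and Bace1 fell in C22, while in C3 Adam17 lay at the threshold and Bace1 was not called. Adam17, which limits neuregulin signalling at the axon, had 151, 136, 120.1, 106 and 96.0 CPM in WT-C22 from 3 to 12 weeks and 279.7, 279.8, 265, 196 and 219 CPM in C22. It rose 2.03-fold in C22 with no overlap of the groups (log2 change 1.02 ± 0.14 SE, edgeR adjusted p = 0.000159). In C3 it had 234, 194, 169.7, 148 and 123 CPM against 160.3, 131, 115, 103 and 96.7 CPM in WT-C3, higher at each of the 5 ages. This difference lay at the threshold (log2 change 0.52 ± 0.18 SE, edgeR adjusted p = 0.0501, 95% interval 0.14 to 0.90). It was called in 7 of 8 other settings, with adjusted p of 0.0176 with library size only, 0.0208 by DESeq2, 0.0277 by the likelihood ratio test, 0.0381 without a filter, 0.0483 with filterByExpr, 0.0287 in the fit of all 25 libraries and 0.00132 with age as a block. It was also called when the library of WT-C3 at 3 weeks (edgeR adjusted p = 0.0224), of C3 at 9 weeks (0.0439) or of C3 at 12 weeks (0.016) was left out. Between the models, the Adam17 changes were not called different without age in the model (difference 0.48 ± 0.24 SE, 95% interval -0.02 to 0.98, edgeR adjusted p = 0.227) and were with age as a block (difference 0.50, edgeR adjusted p = 0.0023).

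Bace1, the protease that activates the membrane-bound neuregulin 1, ranged from 91.9 to 102 CPM in WT-C22 and from 65.0 to 78.4 CPM in C22, without overlap. It fell in C22 (log2 change -0.45 ± 0.06 SE, edgeR adjusted p = 0.000183). In C3 (76.4 to 97.2 CPM) and WT-C3 (77.5 to 84.9 CPM) the ranges overlapped and no change was called (log2 change 0.10 ± 0.08 SE, edgeR adjusted p = 0.407, 95% interval -0.08 to 0.27). The difference between the models was called (difference -0.56 ± 0.10 SE, edgeR adjusted p = 0.000546). Of the 6887 exon bases of Bace1, 4535 overlap genes on the other strand, among them Rnf214, and whether counting used the strand is not given in the sources used here. Rnf214 moved the same way in C22 (log2 change -0.41 ± 0.09 SE, edgeR adjusted p = 0.0029) at a lower level (30.6 CPM in WT-C22), and its part in the Bace1 values was not tested.

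Lgi4 rose in both models and its receptor Adam22 fell. Lgi4, which Schwann cells secrete and need for myelination, ranged from 286 to 388 CPM in WT-C3 and from 436 to 561 CPM in C3, with no overlap (log2 change 0.55 ± 0.10 SE, edgeR adjusted p = 0.00301). The ranges in WT-C22 (261 to 362 CPM) and C22 (338 to 434 CPM) overlapped, but C22 was higher at each age and the change was called (log2 change 0.37 ± 0.10 SE, edgeR adjusted p = 0.0137). Adam22, the surface receptor of Lgi4, had 27.5, 30.0, 25.8, 30.1 and 28.1 CPM in WT-C3 from 3 to 12 weeks and 18.8, 18.5, 17.0, 12.2 and 16.1 CPM in C3. It fell with no overlap (log2 change -0.74 ± 0.10 SE, edgeR adjusted p = 0.000638). WT-C22 had 20.1, 19.9, 19.5, 20.0 and 16.1 CPM and C22 8.58, 7.85, 10.6, 11.0 and 13.0 CPM, again apart (log2 change -0.91 ± 0.14 SE, edgeR adjusted p = 0.000277). The falls in the models were not shown to differ (difference -0.19 ± 0.17 SE, 95% interval -0.55 to 0.18, edgeR adjusted p = 0.576), and neither were the rises of Lgi4 (difference -0.21 ± 0.14 SE, 95% interval -0.51 to 0.09, edgeR adjusted p = 0.408). On the other strand, Adam22 shares 6137 of 19733 exon bases with Sri, which fell too (log2 change -0.56 ± 0.08 SE in C3 and -0.49 ± 0.06 SE in C22, edgeR adjusted p = 0.000992 and 8.9e-05). Lgi4 shares 2764 of 6017 with Fxyd3, which was called higher in C22 (log2 change 0.57 ± 0.11 SE, edgeR adjusted p = 0.00169) and not in C3 (edgeR adjusted p = 0.0798). The part of these neighbours in the values of Adam22 and Lgi4 was not tested.

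Adgrg6 was lower in C22 than in WT-C22. Its level ranged from 80.4 to 113 CPM in WT-C22 and from 52.5 to 76.8 CPM in C22, with no overlap (log2 change -0.56 ± 0.13 SE, edgeR adjusted p = 0.00403). In C3 (82.7 to 109.6 CPM) it lay below WT-C3 (90.9 to 129 CPM) at each age, but the ranges overlapped and no change was called (log2 change -0.20 ± 0.11 SE, edgeR adjusted p = 0.209, 95% interval -0.44 to 0.04). A difference between the models was not shown (difference -0.38 ± 0.17 SE, 95% interval -0.74 to -0.01, edgeR adjusted p = 0.186).

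Counted together, 6 of the 9 genes passed the test in C3 (4 higher, 2 lower), in a comparison that called 23.9% of all genes tested (12.5% higher and 11.4% lower). In C22 it was 8 of 9 (4 higher, 4 lower), in a comparison that called 42.4% (21.9% higher and 20.5% lower). The change differed between the models for 4 of 9, Nrg1, Erbb3, Erbb4 and Bace1, where 12.1% of all genes did (4.75% higher and 7.31% lower). Compared to WT-C3, C3 c-JunP0Cre differed in 6 of 9 (4 higher, 2 lower), where 21.5% of all genes did (10.3% higher and 11.3% lower). With scaling by library size only, 71.4% of the calls over all genes in C3 and 76.0% in C22 were higher, in place of 52.1% and 51.7%, while the 9 genes kept their counts in each direction in C22 and gained Adam17 in C3. The median log2 change of the 9 was 0.52 in C3 and -0.04 in C22, beside medians of 0.0011 and 0.0046 over all genes. With so few genes, and Nrg1 kept by the filter through the groups where it is high, these counts only describe the list. Erbb2, Erbb3, Lgi4 (higher), Erbb4 and Adam22 (lower) were called in the same direction in both models.

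**Figure D3:**
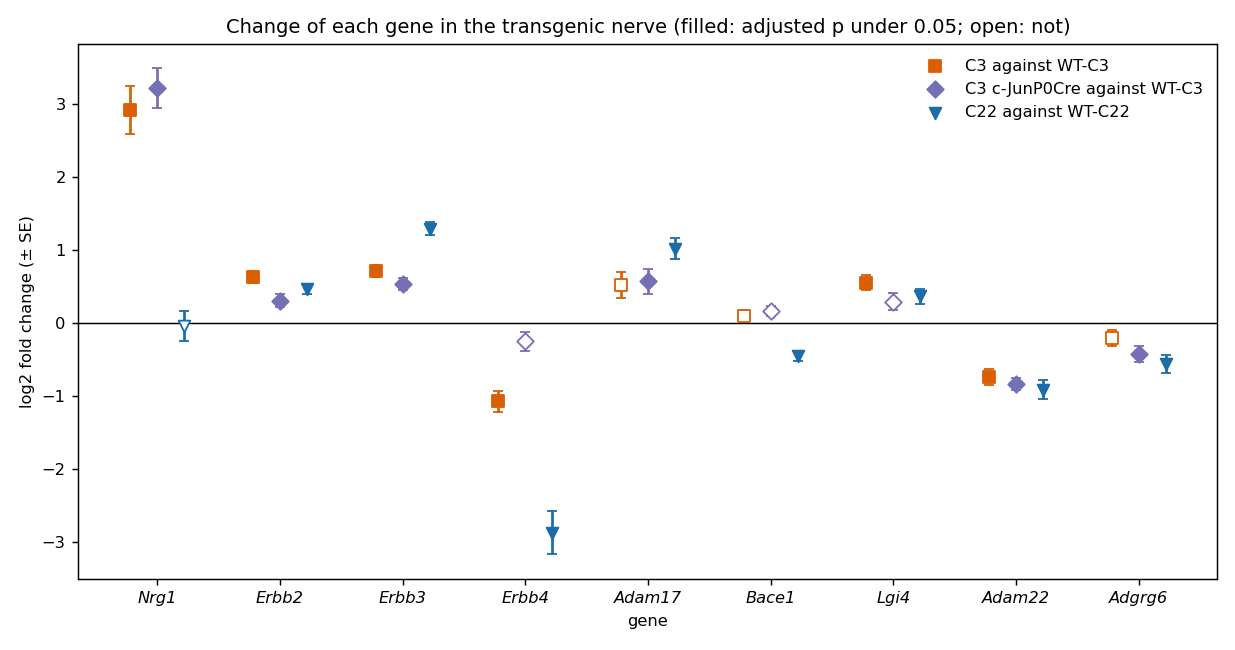
Log2 fold change (vertical axis) with its SE of each of the 9 genes in C3 and C3 c-JunP0Cre, each against WT-C3, and in C22 against WT-C22, where a filled symbol passed the test. Nrg1 lies at 2.92 in C3 and -0.04 in C22, and Erbb4 at -1.07 in C3, -0.25 in C3 c-JunP0Cre and -2.87 in C22; both C3 groups share the WT-C3 libraries.

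With c-Jun lost in Schwann cells of the C3 nerve, 1 of the 9 genes, Erbb4, was higher than in C3. It had 10.5, 7.72, 7.78, 8.60 and 7.62 CPM from 3 to 12 weeks in C3 c-JunP0Cre, every value above the highest of C3 (5.50 CPM). The rise was 1.77-fold (log2 change 0.82 ± 0.13 SE, edgeR adjusted p = 0.0148), in a comparison that called 0.55% of all genes (0.222% higher and 0.329% lower). Against WT-C3 the level of Erbb4 in C3 c-JunP0Cre was not called different (log2 change -0.25 ± 0.13 SE, edgeR adjusted p = 0.207, 95% interval -0.54 to 0.04). The call was lost in a fit of all 25 libraries (edgeR adjusted p = 0.0932) and without the C3 library of 5 weeks (0.0595), with a log2 change of 0.82 in both. With age as a block, where the libraries of these groups paired by age, 273 genes were called in place of 77 and their higher share moved from 40.3% to 60.1%, while Erbb4 remained the 1 of the 9 genes that was called (edgeR adjusted p = 0.0171).

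Erbb2, Erbb3, Lgi4 and Adgrg6 were lower in C3 c-JunP0Cre than in C3 at each of the 5 ages without passing the test. Their log2 differences were -0.32 ± 0.08 SE for Erbb2, -0.17 ± 0.08 SE for Erbb3, -0.26 ± 0.11 SE for Lgi4 and -0.22 ± 0.10 SE for Adgrg6, with edgeR adjusted p of 0.184, 0.634, 0.583 and 0.643. Erbb2 was called lower by DESeq2 (adjusted p = 0.0305) and by edgeR in the fit of all libraries (0.0484). Adam17, Bace1 and Adam22 had log2 differences of 0.05, 0.07 and -0.08, with 95% intervals of -0.36 to 0.46, -0.10 to 0.25 and -0.32 to 0.16. Set against WT-C3, Erbb3 was still higher (log2 change 0.54 ± 0.08 SE, edgeR adjusted p = 0.000795) and Adam22 still lower (log2 change -0.83 ± 0.08 SE, edgeR adjusted p = 2.49e-05). Adgrg6 was lower (log2 change -0.42 ± 0.11 SE, edgeR adjusted p = 0.0179), Erbb2 higher (log2 change 0.31 ± 0.09 SE, edgeR adjusted p = 0.0259) and Adam17 higher (log2 change 0.57 ± 0.17 SE, edgeR adjusted p = 0.0312). The call of Erbb2 was lost without WT-C3 of 7 or 9 weeks or C3 c-JunP0Cre of 9 weeks (edgeR adjusted p = 0.0624, 0.0574 and 0.0678). That of Adam17 was lost without WT-C3 of 7, 9 or 12 weeks or C3 c-JunP0Cre of 3, 5 or 7 weeks (edgeR adjusted p of 0.059 to 0.0776), and Lgi4 was called without C3 c-JunP0Cre of 3 weeks (0.0323). Bace1 was called with library size only (0.0143).

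The control nerves themselves differed in 4 of the 9 genes, in a comparison of WT-C22 to WT-C3 that called 21.7% of all genes (9.99% higher and 11.7% lower). Erbb4 was 2.13-fold higher in FVB/NRJ (log2 change 1.09 ± 0.19 SE, edgeR adjusted p = 0.00139), with 13.4 to 28.0 CPM against 8.21 to 11.5 CPM and no overlap. Bace1 was higher as well (log2 change 0.26 ± 0.06 SE, edgeR adjusted p = 0.00822) and Adam22 lower (log2 change -0.57 ± 0.08 SE, edgeR adjusted p = 0.000405), both without overlap. Erbb2 was higher (log2 change 0.26 ± 0.08 SE, edgeR adjusted p = 0.0343). Without WT-C3 of 7 or 9 weeks or WT-C22 of 3, 9 or 12 weeks the Erbb2 call was lost (edgeR adjusted p of 0.0508 to 0.0798), as it was with library size only (0.0501) and in edgeR's likelihood ratio test (0.0619). Erbb3, lower in WT-C22 at each age, missed the threshold (log2 change -0.23 ± 0.08 SE, edgeR adjusted p = 0.065) and passed it without WT-C22 of 3 weeks (0.0315), with library size only (0.0442) and in DESeq2 (0.0333). For Nrg1 the 95% interval of the log2 difference was -0.60 to 0.47. All 5 mast cell markers and 4 of 6 adipocyte markers were higher in WT-C22, and Sri, on the other strand of Adam22, was lower (log2 change -0.34 ± 0.07 SE, edgeR adjusted p = 0.00478); their part in these differences was not tested.

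Across ages, Adam17 fell in 4 of the 5 groups by the linear slope. A natural spline of age in 1 fit of all libraries called it in C3 (edgeR adjusted p = 0.0168), C3 c-JunP0Cre (0.0181) and WT-C22 (0.0466), where 2.27%, 3.38% and 2.86% of 15298 genes were called. In WT-C3 (edgeR adjusted p = 0.057, 0.693% of genes) and C22 (0.154, 0.752%) the spline did not call it. Its linear slopes per week on the log2 scale were -0.08 ± 0.01 SE in WT-C3, -0.10 ± 0.01 in C3, -0.09 ± 0.01 in C3 c-JunP0Cre, -0.07 ± 0.01 in WT-C22 and -0.05 ± 0.01 in C22. All of these were negative, and the slope passed the test in each group but C22 (edgeR adjusted p of 0.000962 to 0.00426, and 0.102 in C22). Slopes were called for 2.62% of genes in WT-C3, 7.77% in WT-C22 and 0.784% in C22. The call was lost without the library of 3 weeks in WT-C3 (edgeR adjusted p = 0.321), of 12 weeks in C3 c-JunP0Cre (0.132) and of 3 or 12 weeks in WT-C22 (0.0769 and 0.101).

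Nrg1 fell with age in the groups in which it was high, by the linear slope. In C3 the slope was -0.17 ± 0.03 SE per week on the log2 scale (edgeR adjusted p = 0.00718, where 5.96% of genes were called) and in C3 c-JunP0Cre -0.14 ± 0.03 SE (edgeR adjusted p = 0.0145, 5.97%). The spline did not call it in either (edgeR adjusted p = 0.0998 and 0.125). Without the library of 3 or 12 weeks the slope was no longer called, with edgeR adjusted p of 0.066 and 0.123 in C3 and 0.142 and 0.134 in C3 c-JunP0Cre. A different course of Nrg1 in C3 and WT-C3 was not shown (slope difference -0.21 ± 0.06 SE, edgeR adjusted p = 0.532), in a test that called 0.0196% of genes by slope and 0.0261% by spline. Erbb4 ran in opposite directions in the FVB/NRJ groups, with slopes of -0.10 ± 0.03 SE per week in WT-C22 and 0.15 ± 0.04 SE in C22. Neither slope passed on its own (edgeR adjusted p = 0.0599 and 0.0838), while their difference did (0.25 ± 0.05 SE, edgeR adjusted p = 0.0319, 0.464% of genes called). The spline did not call this difference (edgeR adjusted p = 0.322, 0.0523% of genes called), and it was lost without WT-C22 of 3, 5 or 12 weeks or C22 of 3 or 12 weeks (edgeR adjusted p of 0.0703 to 0.52). The slope in WT-C22 was called without its library of 9 weeks (0.0474) and that in C22 without its library of 5 weeks (0.0244). For C3 c-JunP0Cre against C3, none of the 9 time courses was called by edgeR, where 0.0588% of all genes were by spline and 0.00654% by slope.

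Of the other ligands of the ErbB family, Btc rose and Tgfa fell in both models. Of 11 such genes, the receptor Egfr included, 6 were tested, and 1 rose and 1 fell in C3, against 1 rose and 2 fell in C22. All counts of this and the other lists stand beside 23.9% of all genes called in C3 and 42.4% in C22, and they describe the lists only. Btc, a ligand of Egfr and Erbb4, rose in C3 from 1.49 to 12.8 CPM on average (log2 change 3.16 ± 0.25 SE, edgeR adjusted p = 2.58e-05) and in C22 from 2.44 to 11.4 CPM (log2 change 2.17 ± 0.24 SE, edgeR adjusted p = 3.6e-05). Tgfa, a ligand of Egfr, fell from 113 to 18.4 CPM in C22 (log2 change -2.62 ± 0.16 SE, edgeR adjusted p = 2.71e-07) and less in C3 (log2 change -0.63 ± 0.09 SE, edgeR adjusted p = 0.00069; difference -2.01 ± 0.18 SE, edgeR adjusted p = 3.48e-07). Hbegf, which binds Egfr and Erbb4, fell in C22 (log2 change -1.07 ± 0.09 SE, edgeR adjusted p = 4.33e-06) and differed between the models (difference -1.28 ± 0.14 SE, edgeR adjusted p = 5.07e-06). Btc was the 1 gene of this list called in C3 c-JunP0Cre compared to C3, where it was lower (log2 change -0.95 ± 0.16 SE, edgeR adjusted p = 0.0226), and that call was lost without C3 of 5 or 7 weeks or C3 c-JunP0Cre of 5, 7, 9 or 12 weeks (edgeR adjusted p of 0.0528 to 0.0956).

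Among 16 other sheddase genes, all tested, 3 rose and 2 fell in C3 and 4 rose and 5 fell in C22, beside 23.9% and 42.4% of all genes called. Rhbdf2 and Rhbdf1, partners that guide Adam17 to the cell surface, rose in C3 (log2 change 0.73 ± 0.09 SE and 0.58 ± 0.10 SE, edgeR adjusted p = 0.000255 and 0.00193) and in C22 (1.18 ± 0.08 SE and 0.49 ± 0.07 SE, edgeR adjusted p = 5.85e-07 and 0.000235). Bace2, a relative of Bace1, fell in both (log2 change -0.38 ± 0.09 SE in C3 and -0.79 ± 0.10 SE in C22, edgeR adjusted p = 0.0118 and 6.56e-05). Of 5 relatives of Lgi4 and Adam22, 2 rose and 1 fell in C3 and 2 rose and 2 fell in C22. The Adam22 relatives Adam11 and Adam23 rose where Adam22 fell, Adam11 from 17.4 to 95.2 CPM in C3 (log2 change 2.43 ± 0.21 SE, edgeR adjusted p = 3.79e-05) and from 20.3 to 61.0 CPM in C22 (log2 change 1.58 ± 0.14 SE, edgeR adjusted p = 6.47e-06). For Adam23 the values were 1.11 ± 0.14 SE in C3 and 1.85 ± 0.10 SE in C22 on the log2 scale (edgeR adjusted p = 0.000389 and 1.64e-07). Lgi1, the ligand relative of Lgi4, fell in both (log2 change -0.51 ± 0.09 SE and -1.29 ± 0.13 SE, edgeR adjusted p = 0.00298 and 1.54e-05). Adam11 fell in C3 c-JunP0Cre compared to C3, from 95.2 to 32.7 CPM (log2 change -1.52 ± 0.21 SE, edgeR adjusted p = 0.0049), the 1 call of that list in this comparison.

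Relays of the ErbB signal moved in both directions. Of 33 tested out of 35, 5 rose and 2 fell in C3 and 5 rose and 6 fell in C22 (all genes 23.9% and 42.4%), with median log2 changes of -0.01 and -0.03. Among those called were Fyn and Src, kinases of the Src family, which rose in C3 (log2 change 0.73 ± 0.08 SE and 0.76 ± 0.11 SE, edgeR adjusted p = 0.000189 and 0.000619) and in C22 (1.51 ± 0.08 SE and 0.92 ± 0.09 SE, edgeR adjusted p = 1.57e-07 and 1.37e-05). Mapk3, which encodes the kinase ERK1, fell in C22 from 615 to 294 CPM (log2 change -1.07 ± 0.08 SE, edgeR adjusted p = 2.17e-06). Of 14 brakes on the signal, 1 rose and 0 fell in C3 and 1 rose and 4 fell in C22. Lrig1, which promotes the breakdown of ErbB receptors, fell in C22 (log2 change -0.55 ± 0.06 SE, edgeR adjusted p = 2.37e-05). In C3 it was called higher (log2 change 0.24 ± 0.07 SE, edgeR adjusted p = 0.0219), a call lost without a filter on low counts (edgeR adjusted p = 0.0774) and without WT-C3 of 7 weeks (0.0543), C3 of 5 weeks (0.0652) or C3 of 7 weeks (0.0581). Its changes differed between the models (difference -0.80 ± 0.08 SE, edgeR adjusted p = 1.11e-06).

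Of 28 partners and relays of Adgrg6, 2 rose and 10 fell in C22 and 2 rose and 5 fell in C3. Taken without direction, these shares are near those of all genes (42.4% and 23.9%). Of all genes, 21.9% rose and 20.5% fell in C22, and 12.5% rose and 11.4% fell in C3. The adenylyl cyclases, which make cyclic AMP, moved in opposite directions. Adcy1 fell in C22 from 390.0 to 20.8 CPM (log2 change -4.23 ± 0.19 SE, edgeR adjusted p = 4.61e-08), and Adcy2 rose from 5.03 to 47.5 CPM (log2 change 3.21 ± 0.15 SE, edgeR adjusted p = 5.62e-08). Adcy8 fell as well (log2 change -2.48 ± 0.28 SE, edgeR adjusted p = 3.38e-05), and all these changes differed from those in C3 (difference -3.62 ± 0.26 SE for Adcy1, 2.86 ± 0.23 SE for Adcy2 and -2.07 ± 0.35 SE for Adcy8, edgeR adjusted p = 2.85e-08, 6.57e-08 and 0.000503). Rapgef4, a sensor of cyclic AMP, fell in C3 (log2 change -0.75 ± 0.11 SE, edgeR adjusted p = 0.000755) and C22 (log2 change -1.50 ± 0.12 SE, edgeR adjusted p = 2.43e-06). Of 13 nuclear targets, 4 rose and 1 fell in C3 and 4 rose and 2 fell in C22 (all genes 23.9% and 42.4%). Pou3f1 (Oct6), the factor of the promyelinating stage, rose from 37.4 to 163 CPM in C3 (log2 change 2.11 ± 0.19 SE, edgeR adjusted p = 3.8e-05) and from 36.2 to 452 CPM in C22 (log2 change 3.64 ± 0.17 SE, edgeR adjusted p = 5.75e-08). Its relative Pou3f2 rose in both (log2 change 1.20 ± 0.14 SE and 1.72 ± 0.13 SE, edgeR adjusted p = 0.000189 and 1.36e-06). Of the EGR cofactors, Nab2 rose (0.57 ± 0.07 SE and 0.92 ± 0.10 SE, edgeR adjusted p = 0.000444 and 2.44e-05) while Nab1 fell (-0.56 ± 0.08 SE and -1.05 ± 0.08 SE, edgeR adjusted p = 0.000644 and 1.97e-06). In C3 c-JunP0Cre compared to C3, none of the genes tested in the lists of sheddases, relays, brakes, Adgrg6 partners and nuclear targets was called by edgeR. Only 0.55% of all genes were called in that comparison, so the absence of calls in these lists only describes them.

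**Figure D4:**
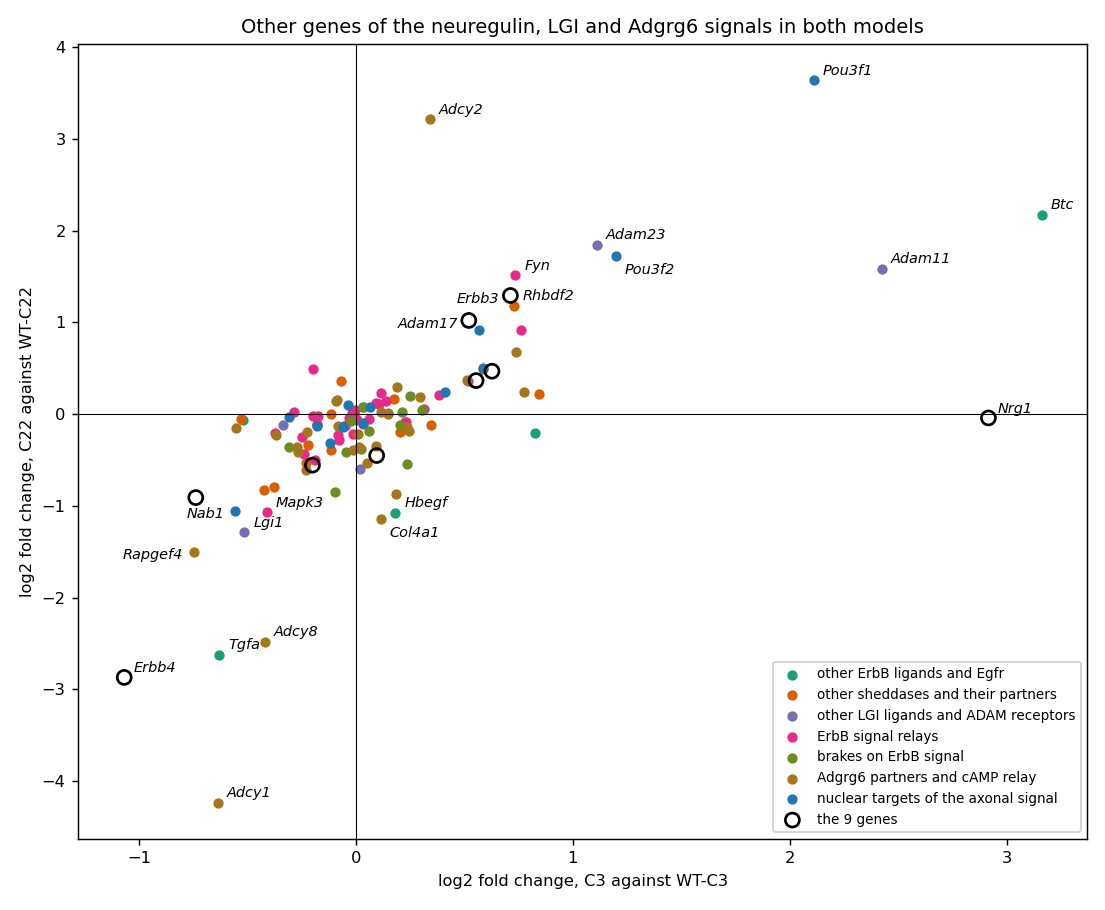
Log2 fold change in C3 (horizontal axis) against that in C22 (vertical axis) for the tested genes of the 7 other lists (colours) and the 9 genes (open circles), with names for genes past 1 in either model. Nrg1 lies beside the horizontal axis at 2.92 and -0.04, Btc and Adam11 are far out in both models, and Adcy1 and Adcy2 are far out in C22 at -4.23 and 3.21.

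Over the 25 libraries, the 3 genes with the highest Pearson correlation of log2 CPM with Nrg1 were Gadl1 (0.94), Cpe (0.91) and Spata13 (0.90). For Erbb3 they were Zfp516 (0.97), Ddhd1 (0.97) and Rasgef1a (0.97), for Erbb2 Taf1c (0.92), Tjap1 (0.92) and Capn5 (0.92) and for Erbb4 Fntb (0.93), Nsg2 (0.93) and Cndp1 (0.92). For Adam17, 2 of the 3 were Ttyh1 (0.96) and Ppp1r14c (0.96), and those nearest to Bace1 were Fgl2 (0.89), Has2os (0.87) and Ahr (0.84). Lgi4 was followed by Sfswap (0.91), Zcchc4 (0.91) and Plekha5 (0.91), Adam22 by Vgll3 (0.95), Taf9b (0.95) and Nek7 (0.94) and Adgrg6 by Emp2 (0.92), Secisbp2l (0.91) and Fzd3 (0.91). These values describe libraries that share group, strain and age, and much of each is the difference between groups. For Nrg1 and Gadl1 the correlation of deviations from the group means was 0.62. Among the 9 genes, Erbb3 ran with Adam17 (0.86 over all libraries, 0.69 within groups) and against Erbb4 (-0.88 over all libraries, 0.03 within groups). Nrg1 had correlations of 0.19 with Erbb2 and 0.34 with Erbb3.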

How the data were processed

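RNA of sciatic nerve pools was poly(A) enriched and sequenced with a directional kit. The authors trimmed the reads (cutadapt 2.10), mapped them to GRCm39 extended by the human transgene locus (STAR 2.7.5a), removed duplicates by molecular identifier (UMI-tools 1.1.1), counted them per gene of Ensembl 110 (HTSeq 0.12.4) and deposited raw counts, not normalized, for 56956 genes, of which 15 are human. The strand setting of the counting is not given in the sources used here. Reads on no gene (8.12% to 12.1%), on several genes (1.78% to 2.04%) and on several places (2.76% to 3.93%) were left out.

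For the tests, edgeR 4.0.16 (R 4.3.3) was run with the filter and scaling of the study's methods. A gene was kept if its log2 CPM exceeded 1 in 7 or more of the 25 libraries (13993 genes). After TMM scaling of the groups compared, group effects were estimated by a quasi-likelihood model without further terms and p was adjusted after Benjamini-Hochberg. The SE is the log2 change divided by the square root of the F statistic, and 95% intervals use the t distribution with the degrees of freedom of the fit. Age was tested as a natural spline with 3 degrees of freedom (splines 4.3.3) and as a linear slope, both on all 25 libraries jointly and on 15298 genes kept by filterByExpr. DESeq2 1.42.0 and other settings served as alternatives. Pools are 1 per group and age, so p-values cover the spread over ages and pools. Deviations of same-age libraries from their group means correlated above 0.1 at every age only for C3 c-JunP0Cre and C3 (0.415, 0.114, 0.350, 0.243 and 0.605). There too the block of age served as an alternative. Values are from the fit without the block unless it is named. On simulated counts for C3 against WT-C3 (13993 genes), 31.4% of changes of 0.5, 91.5% of 1 and 98.6% of 2 on the log2 scale were recovered. These were 70, 59 and 71 changed genes, simulated with a single dispersion for all genes and no course with age. The real comparison called 23.9% of genes and holds such a course, so these shares do not give the recovery in the real data.

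The genes named are the 9, the targeted genes as a check of the labels, at most 4 called genes per other list and comparison by adjusted p, and the 3 genes most correlated with each of the 9. Neighbours of Nrg1 and genes on the other strand were added after the values were seen. The 9 genes and the lists were chosen with earlier results of these data known. Some items that these rules select are not reported here. Gene positions and sequences are from GENCODE M39 and GRCm39.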

Additional observations from a re-analysis of the deposited data

Results flagged for a closer look

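The Adam22 level of the WT-C22 library at 12 weeks, 16.1 CPM, lay further below the other WT-C22 libraries than the Dixon limit for 5 samples allows (ratio 0.848). It was 1 of 45 groups of 5 libraries examined for the 9 genes, of which chance alone flags about 2.25.

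The changes of 4 genes differed between the models in a test of the difference itself (C22 change minus C3 change, log2 scale). These were Nrg1 (-2.98, edgeR adjusted p = 3.72e-05), Erbb3 (0.56, edgeR adjusted p = 0.00269), Erbb4 (-1.82, edgeR adjusted p = 0.0012) and Bace1 (-0.56, edgeR adjusted p = 0.000546). Copy number and strain cannot be told apart here.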

How the results depend on the processing

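Each comparison was repeated with 2 other scalings (library size alone, median-ratio factors), other tests (DESeq2, edgeR's likelihood ratio), other filters (none, filterByExpr), all 25 libraries together, an age block, and each library left out in turn. Over the comparisons of groups, these gave 411 values for the 9 genes with the same direction and side of the threshold. Another 15 newly passed it, 3 no longer did and 2 had another sign. Fits without a single library and the tests of age are not in this tally. Counts of the 9 genes called without 1 library ran from 6 to 7 in C3 and from 0 to 1 in C3 c-JunP0Cre compared to C3, where DESeq2 called 2. They ran from 8 to 8 in C22, 4 to 4 for the difference between the models, 4 to 6 in C3 c-JunP0Cre compared to WT-C3, and 3 to 4 in WT-C22 compared to WT-C3. A spline with 2 degrees of freedom called 1 of the 9 with age in WT-C3 (0 with 3). The linear slope called 1 in WT-C3, 2 in C3 and 2 in C3 c-JunP0Cre, and 1 for the time course of C22 against WT-C22 (0, 1, 1 and 0 with the spline). Without 1 library these slope counts ran from 0 to 1 in WT-C3, 1 to 2 in C3, 0 to 2 in C3 c-JunP0Cre and 0 to 1 for that time course, and from 0 to 2 in WT-C22 and 0 to 1 in C22.

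No call of the 9 genes changed sign. Log2 changes near 0 did: Nrg1 in C22 was 0.13 with library size only and -0.14 to 0.14 without 1 library. Adam17 in WT-C22 compared to WT-C3 was -0.00129 with library size only and -0.080 to 0.13 without 1 library, and Jun there was -0.0154 with age as a block and -0.10 to 0.13 without 1 library, while Nrg1 there ran from -0.24 to 0.041. Adam17 in C3 c-JunP0Cre compared to C3 ran from -0.050 to 0.19. The cause of these moves was not tested.

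Scaling by library size only moved the median log2 change of all genes to 0.076 in C3 and 0.174 in C22, and the share of higher calls from 52.1% to 71.4% in C3, 51.7% to 76.0% in C22, 39.4% to 63.1% for their difference and 47.7% to 66.6% in C3 c-JunP0Cre compared to WT-C3. The 8 calls of C22 kept their sign relative to that shift. In C3 c-JunP0Cre compared to C3 the calls over all genes ran from 71 to 273 (77 with the test used, and 43 to 98 without 1 library), with 193 in the likelihood ratio test, 134 without a filter, 139 in the fit of all libraries and 250 in DESeq2. In the other comparisons the deviations of same-age libraries did not correlate above 0.1 at each age. Unless the block is named, values are from the fit without it in every comparison, although same-age libraries share an age. With age as a replicate block the count of the 9 genes was 7 in C3 (Adam17 added, edgeR adjusted p = 0.00132), 8 in C22, 5 for the difference (Adam17 added, edgeR adjusted p = 0.0023), 6 in C3 c-JunP0Cre compared to WT-C3 and 5 in WT-C22 compared to WT-C3 (Erbb3 added, edgeR adjusted p = 0.045). Depth limits Nrg1 most, at 7 to 34 counts in the control libraries.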
